A study of Mus musculus with 10 samples.

Results

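The immunity-related p47 GTPases examined here are 7 interferon-inducible genes, Irgm1, Irgm2, Igtp, Iigp1, Tgtp1, Tgtp2 and Ifi47. They were taken by symbol from the 56884 gene rows of a hippocampal RNA-seq count table, and all 7 had a row and enough counts to be tested. The hippocampi came from 10 ovary-intact female P301S (PS19) mice of B6;C3 background, which all carry human mutant Tau driven by the mouse Prnp promoter. At 6 months of age, 5 mice received a subcutaneous implant with 10 mm of dihydrotestosterone (DHT) powder, an androgen that cannot be aromatized to estrogen, and 5 received an empty (void) implant. Tissue was taken after 12 weeks of treatment, at 9 to 9.5 months, and every mouse gave 1 library. No mouse without the Tau transgene and no male was among the samples, so the comparison is DHT against void within this model.

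The p47 GTPases are among the most strongly induced targets of interferon-gamma and also respond to type I interferons. They fall into regulators, which carry an unusual methionine in the nucleotide-binding loop and sit on the cell's own membranes, and effectors, which carry the usual lysine, are held inactive by the regulators and load onto the vacuoles of intracellular parasites and bacteria to break them open. Irgm1, Irgm2 and Igtp (also called Irgm3) are the regulators. Iigp1 (Irga6), Tgtp1 and Tgtp2 (both Irgb6) and Ifi47 (Irgd) are effectors. In brain they are inducible in microglia, astrocytes and endothelium, and bulk RNA does not show which of these cells an mRNA came from.

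Promoters of interferon targets commonly hold an interferon-stimulated response element (ISRE) or a gamma-activated site (GAS), short sequences through which interferons switch on transcription. The RefSeq promoter table of mouse build GRCm38.p6, with 250 bases before and 50 after each start, held 6 of the 7 members. Of these, 5 had the ISRE-type motif, GAAA and GAAA with any 2 bases between them, searched on both strands, and 4 of the 5 also had the GAS-type motif TTCNNNGAA, which reads the same on both strands. Of all 32851 promoters in the table, 3.44% held the ISRE-type motif, 8.30% held TTCNNNGAA and 0.454% held both. Stretches of 80 bases around the matches are shown because they are what these promoters share and where they differ, read 5′ to 3′ on the gene's strand with the matches in capitals. The stretches are chr11:48871405-48871484 for Irgm1, chr11:58214873-58214952 for Irgm2, chr11:58199482-58199561 for Igtp, chr11:48992284-48992363 for Tgtp1 and chr11:49064243-49064322 for Tgtp2. Irgm2 and Igtp lie on the plus strand and the other three on the minus strand.
Irgm1: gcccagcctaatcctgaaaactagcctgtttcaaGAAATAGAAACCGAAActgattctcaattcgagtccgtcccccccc
Irgm2: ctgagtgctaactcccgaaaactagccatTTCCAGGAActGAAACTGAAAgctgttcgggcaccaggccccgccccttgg
Igtp: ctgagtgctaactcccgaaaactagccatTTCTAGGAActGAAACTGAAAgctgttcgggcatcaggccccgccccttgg
Tgtp1: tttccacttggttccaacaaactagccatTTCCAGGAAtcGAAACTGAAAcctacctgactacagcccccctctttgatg
Tgtp2: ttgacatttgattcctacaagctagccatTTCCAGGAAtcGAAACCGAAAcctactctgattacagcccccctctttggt

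In Irgm2, Igtp, Tgtp1 and Tgtp2 the GAS-type match comes first and 2 bases separate it from the ISRE-type match. Counted with the start base as 0, the ISRE-type match began at -64 in Irgm2, -34 in Igtp, -77 in Tgtp1 and -70 in Tgtp2. Irgm1 instead held 2 overlapping ISRE-type matches, beginning at -30 and -24, and no GAS-type match in its window. The stretches of Irgm2 and Igtp were identical at 78 of 80 bases, and those of Tgtp1 and Tgtp2 at 56 of 80. The window of Ifi47 held neither motif. Iigp1, which lies on chromosome 18 while the other 6 lie on chromosome 11, had no entry in the table. The matches are letters in a reference sequence, and no binding was measured.

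Total counts per mouse ranged from 27188854 to 47113661 with void and from 33523527 to 45947784 with DHT. The 8 hippocampal subfield markers were present in every mouse, at a summed 655 to 918 CPM (counts scaled to a common library size) with void and 681 to 913 CPM with DHT. The 12 choroid plexus markers, from a tissue next to the hippocampus, were at a summed 361 to 3259 CPM with void and 3894 to 5721 CPM with DHT, so the groups did not overlap. The sums of the 10 microglia markers were also apart, at 472 to 537 CPM with void and 637 to 892 CPM with DHT. The libraries of the void mice all precede those of the DHT mice in the numbering of the labels, so the order of the libraries cannot be told apart from treatment. DHT replicate 3 had the highest value of its group for 6 of the 7 members, and values without it are given for the members and, where an adjusted p under 0.05 was lost, for the other genes named.

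Irgm1 and Tgtp1 rose with DHT, by 2.17-fold and 2.77-fold. They are the 2 of 7 members called higher, against 2.17% of all genes tested. A call needed a log2 fold change above 1 together with an adjusted p under 0.05, from the quasi-likelihood test of edgeR with p adjusted by Benjamini-Hochberg over 17622 genes. The count of 2 became 0 without DHT replicate 3 and 0 with a choroid plexus covariate, 1 without DHT replicate 1 or void replicate 4, 10 or 11, and the Tgtp1 call was lost when the counts of Tgtp1 and Tgtp2 were summed. Igtp rose by 1.96-fold and met the limit on the adjusted p alone, which makes 3 of 7 members against 5.22% of all genes. No member was lower, while 0.0227% of all genes were called lower and 0.261% were lower by the adjusted p alone. The log2 fold changes of all 7 were positive, from 0.09 to 1.47, and their median was 0.97, beside 0.01 over all genes tested. In 2 of the 7, Irgm1 and Igtp, every DHT mouse was above every void mouse, which held for 5.39% of all genes. In bulk tissue, more cells of a type and more RNA per cell cannot be told apart.

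Irgm1 (ENSMUSG00000046879), the regulator found on Golgi membranes and lysosomes, was the most abundant of the 7. In void replicates 4, 5, 9, 10 and 11 it was at 8.69, 13.9, 10.1, 10.3 and 10.3 CPM. In DHT replicates 1, 2, 3, 5 and 6 it was at 26.1, 16.6, 36.5, 16.8 and 19.2 CPM. The lowest DHT mouse was above the highest void mouse, and DHT replicates 3 and 1 stood above the other DHT mice. The group means were 10.6 ± 1.94 and 23.04 ± 8.44 CPM (SD, n = 5 each), and the log2 fold change was 1.12 with a standard error (SE) of 0.22 and an adjusted p of 0.0130 (edgeR). The two-sided exact permutation p was 0.00794, the smallest that 5 mice against 5 allow. Without DHT replicate 3 the log2 fold change of Irgm1 was 0.87, short of the fold limit, and its adjusted p was 0.0268.

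Igtp (ENSMUSG00000078853), the regulator of the endoplasmic reticulum and lipid droplets, followed the same mice. It was at 2.14, 4.15, 3.01, 3.76 and 3.12 CPM in void replicates 4, 5, 9, 10 and 11, and at 7.08, 4.64, 9.49, 5.18 and 5.12 CPM in DHT replicates 1, 2, 3, 5 and 6. All DHT mice were above all void mice, with DHT replicate 2 closest to void replicate 5. The means were 3.24 ± 0.774 and 6.30 ± 2.01 CPM (SD, n = 5 each), with 0.97 as the log2 fold change (SE 0.23, adjusted p = 0.0282 from edgeR). The adjusted p of Igtp stayed under 0.05 in 5 of the 10 fits that left out a mouse, and it was 0.0653 at a log2 fold change of 0.75 without DHT replicate 3.

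Irgm2 (ENSMUSG00000069874), the third regulator, did not meet the limits. In void replicates 4, 5, 9, 10 and 11 its level was 4.65, 7.29, 4.34, 5.61 and 5.602 CPM. In DHT replicates 1, 2, 3, 5 and 6 its level was 10.1, 6.69, 12.2, 5.75 and 7.21 CPM. Void replicate 5 lay above 3 of the DHT mice, and the groups overlapped. The means were 5.50 ± 1.15 and 8.38 ± 2.67 CPM (SD, n = 5 each), and the log2 fold change of 0.61 had an SE of 0.21 and an adjusted p of 0.130 (edgeR). Without DHT replicate 3 the log2 fold change of Irgm2 was 0.42, with an adjusted p of 0.293. Irgm2 and Igtp share 162 exon bases on the same strand, and 3.01% of the 100-base windows of Irgm2 transcripts also occur in Igtp.

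Among the effectors, Iigp1 (ENSMUSG00000054072), which coats parasite vacuoles, had the widest range between mice of the DHT group. Its level was 1.97, 4.76, 1.80, 2.77 and 3.18 CPM in void replicates 4, 5, 9, 10 and 11, and 7.10, 3.60, 13.9, 4.40 and 4.97 CPM in DHT replicates 1, 2, 3, 5 and 6. DHT replicate 3 was 3.86 times as high as DHT replicate 2, and void replicate 5 was above 2 of the DHT mice. The means were 2.89 ± 1.19 and 6.797 ± 4.18 CPM (SD, n = 5 each). The log2 fold change of Iigp1, 1.24 with an SE of 0.38, was above the fold limit, but the adjusted p was 0.0852 (edgeR). Without DHT replicate 3 it was 0.78, with an adjusted p of 0.185. Without DHT replicate 2 it was 1.40, with an adjusted p of 0.0481.

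Ifi47 (ENSMUSG00000078920) was among the scarcer members. It was at 0.677, 1.41, 0.403, 0.922 and 1.14 CPM in void replicates 4, 5, 9, 10 and 11, and at 1.39, 0.987, 2.62, 0.838 and 1.43 CPM in DHT replicates 1, 2, 3, 5 and 6. DHT replicate 3 was the only DHT mouse well outside the void range. The means were 0.909 ± 0.390 and 1.45 ± 0.700 CPM (SD, n = 5 each), and the log2 fold change of 0.70 (SE 0.36, adjusted p = 0.363 from edgeR) was not distinguishable from 0 at this spread. Without DHT replicate 3 the log2 fold change of Ifi47 was 0.33, with an adjusted p of 0.634.

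**Figure D1:**
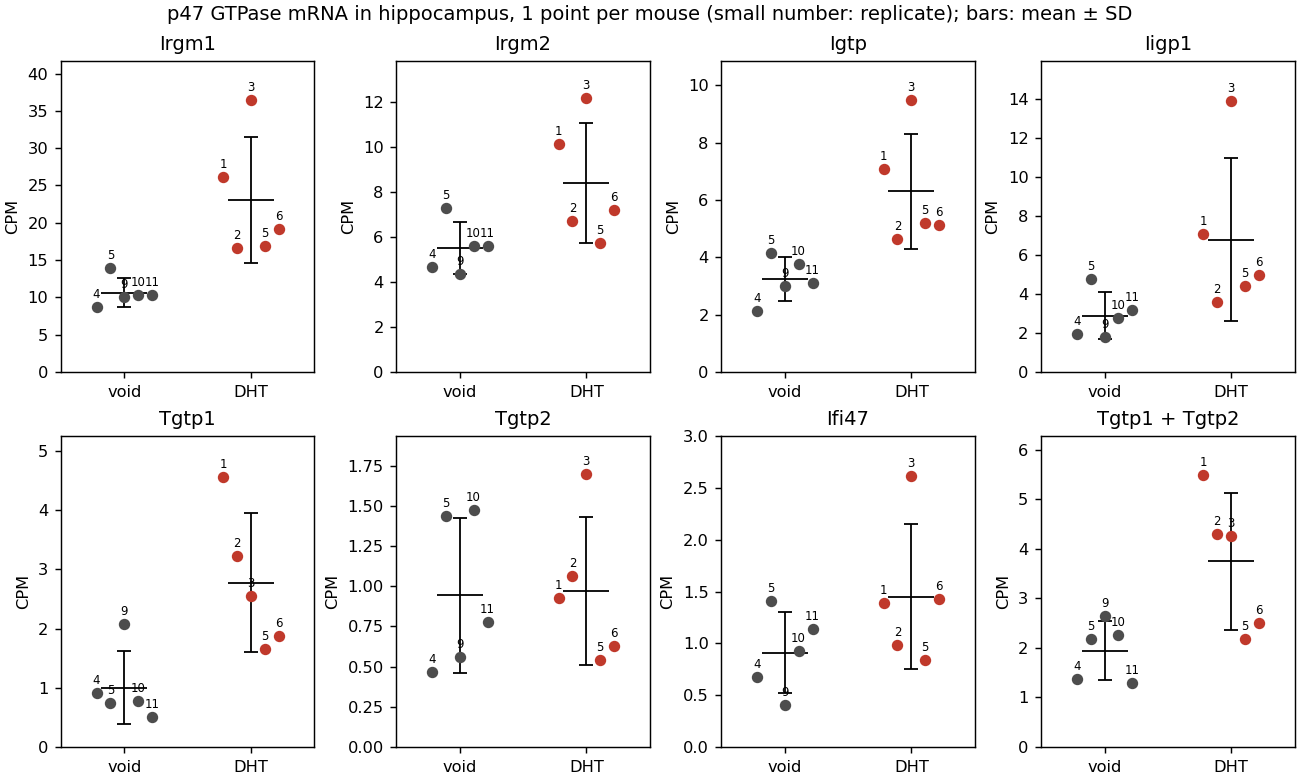
Each panel shows 1 member, and the last the sum of Tgtp1 and Tgtp2, in CPM on axes that start at 0. Grey points are void mice, red points DHT mice, small numbers are replicate numbers, and bars give the mean ± SD (n = 5). All DHT mice lie above all void mice for Irgm1 and Igtp, and DHT replicate 3 is highest for 6 of the 7 members.

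Tgtp1 (ENSMUSG00000078922) and Tgtp2 (ENSMUSG00000078921) encode near-identical effectors from neighbouring genes, and their values are uncertain one by one. Of the 100-base windows in Tgtp1 transcripts, 70.3% also occur in Tgtp2, and of those in Tgtp2, 76.8% occur in Tgtp1. How reads that match both were counted is not given in the sources used here. Tgtp1 was at 0.909, 0.735, 2.08, 0.775 and 0.509 CPM in void replicates 4, 5, 9, 10 and 11. In DHT replicates 1, 2, 3, 5 and 6, Tgtp1 was at 4.56, 3.23, 2.56, 1.65 and 1.88 CPM. Void replicate 9 was above 2 of the DHT mice, and the other void mice were below all of them. The means of 1.001 ± 0.619 and 2.77 ± 1.18 CPM (SD, n = 5 each) gave a log2 fold change of 1.47 (SE 0.38, adjusted p = 0.0419 from edgeR). The call held in 3 of the 10 fits that left out a mouse, with adjusted p values from 0.00525 to 0.127. Without DHT replicate 3 the log2 fold change of Tgtp1 was 1.48, with an adjusted p of 0.0760.

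Tgtp2 did not meet the limits. It was at 0.465, 1.44, 0.558, 1.48 and 0.779 CPM in void replicates 4, 5, 9, 10 and 11, and at 0.929, 1.06, 1.70, 0.539 and 0.625 CPM in DHT replicates 1, 2, 3, 5 and 6. The ranges of the groups covered each other almost fully, and the log2 fold change was 0.09 with an SE of 0.39 (adjusted p = 0.9496 from edgeR). With the counts of both genes summed, the means were 1.94 ± 0.588 CPM with void and 3.74 ± 1.38 CPM with DHT (SD, n = 5 each). The summed row had a log2 fold change of 0.96 (SE 0.28) and an adjusted p of 0.0749 (edgeR), so the Tgtp pair taken as 1 quantity was not called.

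The share of the Tgtp pair's counts assigned to Tgtp1 varied as much among void mice as between the groups. It was 34.4%, 39.5% and 33.8% in void replicates 10, 11 and 5, but 66.2% in void replicate 4 and 78.8% in void replicate 9. These shares rest on 43 to 85 counts a mouse, and the exact binomial 95% interval of void replicate 9 (68.6% to 86.9%) lay above that of void replicate 10 (22.7% to 47.7%). In the DHT mice the share was 83.1%, 75.3%, 60.1%, 75.3% and 75.0% in replicates 1, 2, 3, 5 and 6, on 73 to 203 counts. The intervals cover counting error only.

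Per kilobase of exon, the regulators were the more abundant members in both groups. With void, Irgm1 was at 1.83, Igtp at 1.60 and Irgm2 at 1.49 CPM per kb, and these neighbours did not differ beyond their spread, since each was above the next in 4 of 5 mice. Iigp1 followed at 0.497 CPM per kb and was below Irgm2 in 5 of 5 void mice. Ifi47 at 0.368, Tgtp2 at 0.321 and Tgtp1 at 0.312 CPM per kb came last, with each above the next in 3 of 5 void mice. With DHT, the order of the first 4 was the same, at 3.97, 3.12, 2.27 and 1.17 CPM per kb for Irgm1, Igtp, Irgm2 and Iigp1, and each was above the next in 5 of 5 mice. Tgtp1 at 0.866 CPM per kb was below Iigp1 in 3 of 5 DHT mice, and it was followed by Ifi47 at 0.588 and Tgtp2 at 0.330 CPM per kb. With DHT, Ifi47 was above Tgtp2 in 5 of 5 mice.

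The members other than Tgtp1 and Tgtp2 tracked each other from mouse to mouse, to differing degrees. Averaged over the 7 members, log2 CPM relative to each gene's mean was 1.13 in DHT replicate 3 and 0.70 in DHT replicate 1, the highest of the 10 mice. DHT replicates 2, 6 and 5 were at 0.18, 0.17 and -0.08, and the last was below void replicate 5 at 0.03. Void replicate 5 had the highest value of its group for 5 of the 7 members, and void replicates 4 and 9 had the lowest for 3 each. The profiles of Irgm1 and Igtp over the 10 mice, centred on their means, differed by a root mean square of 0.15 log2 units, the closest pair of members. Irgm1 and Ifi47 differed by 0.42, where the median between Irgm1 and the genes compared was 0.65. Irgm2 and Iigp1 differed by 0.41, little less than the median of 0.47 for Irgm2. Tgtp2 and Ifi47 differed by 0.52, below the median of 0.63 for Tgtp2. The profiles of Tgtp1 and Tgtp2 differed by 1.11, more than the median of 0.96 between Tgtp1 and the genes compared. These are descriptions over mice of both groups, whose difference is part of each profile.

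**Figure D2:**
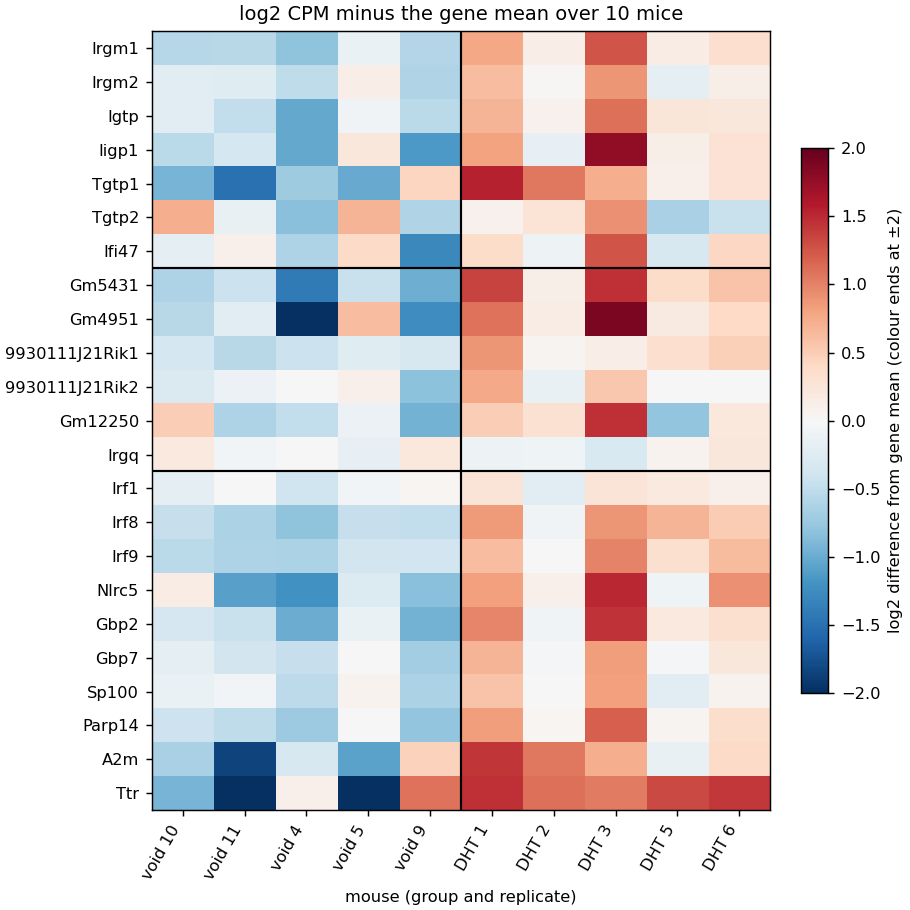
Rows are genes and columns are mice, and colour gives log2 CPM minus the gene's mean over the 10 mice, from blue at -2 to red at 2. The top block holds the 7 members, the middle block other p47 GTPase family genes, and the bottom block interferon signalling genes, genes of like pattern and the choroid plexus marker Ttr. DHT replicates 1 and 3 are red for most members, and Tgtp1 has void replicate 9 above its mean, as Ttr and A2m do.

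Markers of other cell types moved with the members in different ways. The mean log2 CPM of the 10 microglia markers was higher with DHT by 0.42 (two-sided exact permutation p = 0.00794). Of the 10 markers, 4 were higher with an adjusted p under 0.05, against 5.22% of all genes tested. P2ry12, a receptor of resting microglia, had a log2 fold change of 0.16 (adjusted p = 0.479, edgeR). Of 10 markers of disease-associated microglia, 6 were called higher, against 2.17% of all genes tested, and the median log2 fold change was 1.19. Their summed levels of 193 to 254 CPM with void and 260 to 440 CPM with DHT did not overlap. Of 8 astrocyte markers, 1 was called higher, Gfap, a filament protein of reactive astrocytes, at 431 ± 95.3 CPM with void and 975 ± 254 CPM with DHT (SD, n = 5 each, adjusted p = 0.00761), while the summed levels of the 8 overlapped. The part of these markers in the members' differences was not tested. Set against the microglia marker mean of the same mouse, a comparison chosen after seeing the data, the log2 difference was 0.64 for Irgm1, 0.51 for Igtp and 1.06 for Tgtp1. Their two-sided exact permutation p values, not adjusted, were 0.0238, 0.0317 and 0.0397. On this scale Iigp1 was at 0.71 (exact permutation p = 0.119) and Irgm2 at 0.15 (exact permutation p = 0.548). Ifi47 was at 0.22 (exact permutation p = 0.595), and Tgtp2 at -0.35 (exact permutation p = 0.413), the reverse of its sign on the CPM scale. The same microglia marker mean was subtracted for all members, so each log2 CPM difference fell by the 0.42 of the markers. Which cells held the mRNAs was not tested.

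Endothelial markers did not separate the groups, with summed levels of 219 to 325 CPM with void and 246 to 290 CPM with DHT. Their mean log2 CPM differed by 0.01. Within the void group, however, the 5 mice had the same order for Iigp1, for Ifi47 and for the summed endothelial markers. It ran from void replicate 5 at the top through replicates 11, 10 and 4 to replicate 9. That order was not particular to endothelium, since the 7 neuron markers, summed, had it too, from 7528 CPM in void replicate 5 to 6762 CPM in replicate 9. In the DHT group replicate 3 was highest for Iigp1, Ifi47 and the endothelial markers. The order differed below it, as replicate 6 ranked 5 for the endothelial markers, 3 for Iigp1 and 2 for Ifi47. Per endothelial marker level, also chosen after seeing the data, the log2 difference was 1.12 for Iigp1 and 1.05 for Irgm1, each with a two-sided exact permutation p of 0.00794. The corresponding values were 0.92 for Igtp, 0.56 for Irgm2, 1.47 for Tgtp1, 0.63 for Ifi47 and 0.06 for Tgtp2. The spread of Irgm2 among void mice was an SD of 0.29 in log2 CPM and of 0.10 per endothelial marker level. The endothelial marker mean was subtracted for all members alike, so each log2 CPM difference changed only by the 0.01 of the markers.

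Choroid plexus markers moved with Tgtp1 as counted, whose values are uncertain apart from those of Tgtp2. The order of the 5 void mice by Tgtp1 was that of their summed choroid plexus markers, at 3259, 1717, 929, 390 and 361 CPM in void replicates 9, 4, 10, 5 and 11. In the DHT group, replicate 1 was highest for both, at 5721 CPM of markers, and replicate 5 lowest for both, at 3894 CPM, but replicate 6 ranked 2 for the markers and 4 for Tgtp1, and replicate 2 ranked 4 and 2, so 3 of 5 DHT mice held the same place. The summed Tgtp1 and Tgtp2 counts did not hold that order, at 2.64, 1.37, 2.25, 2.17 and 1.29 CPM in void replicates 9, 4, 10, 5 and 11. Tgtp2 alone was lowest in void replicates 4 and 9, at 0.465 and 0.558 CPM. The part of the division of reads between Tgtp1 and Tgtp2 in this order was not tested. Irgm1 and Iigp1 did not follow the order of the markers, since void replicate 5 was highest for both with 390 CPM of choroid plexus markers. With the choroid plexus score of each mouse as a covariate, the log2 fold change of Tgtp1 fell to 0.28, whereas that of Irgm1 was 1.31, Igtp 1.26, Irgm2 0.97, Iigp1 2.11, Tgtp2 0.95 and Ifi47 1.81. No member had an adjusted p under 0.05 in that fit, in which the lowest was 0.611 (edgeR). At an unadjusted p under 0.05 it held 5 of the 7, Irgm1, Irgm2, Igtp, Iigp1 and Ifi47, all higher with DHT, and neither Tgtp1 nor Tgtp2. The fit without the covariate also held 5 at that limit, with Tgtp1 and without Ifi47. The share of all genes at that limit is not given for either fit, so the counts are not a result about the members. The score itself separates the groups, and its part in each fold change was not tested further.

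**Figure D3:**
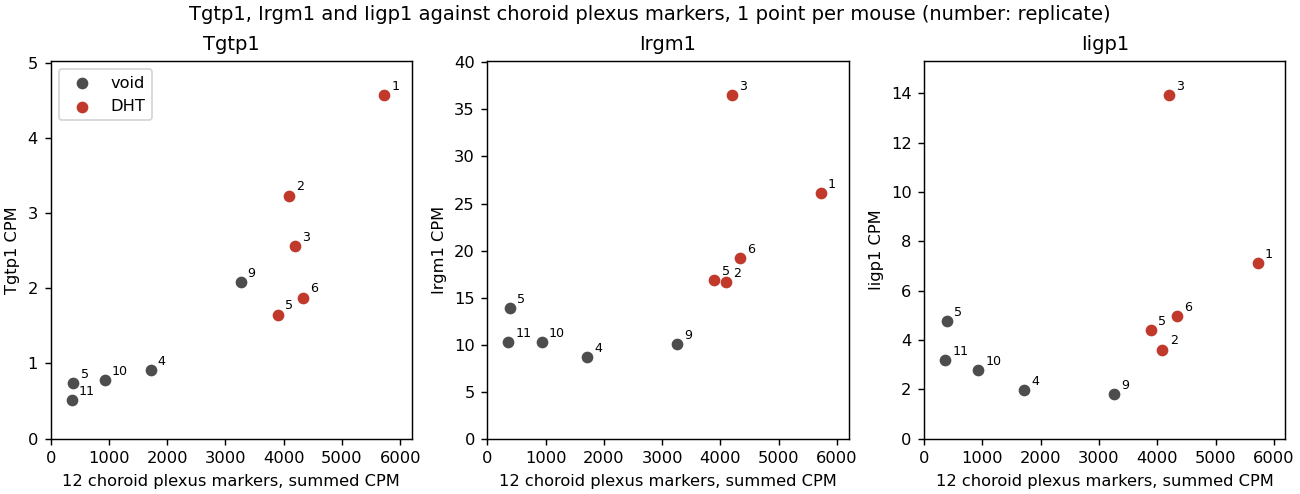
Each panel plots 1 member in CPM (vertical) against the summed CPM of the 12 choroid plexus markers (horizontal), with grey points for void mice, red points for DHT mice and replicate numbers beside them. Tgtp1 ascends with the markers among void mice, from 0.509 CPM in replicate 11 to 2.08 CPM in replicate 9, while Irgm1 and Iigp1 are highest among void mice in replicate 5, which has 390 CPM of markers.

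**Figure D4:**
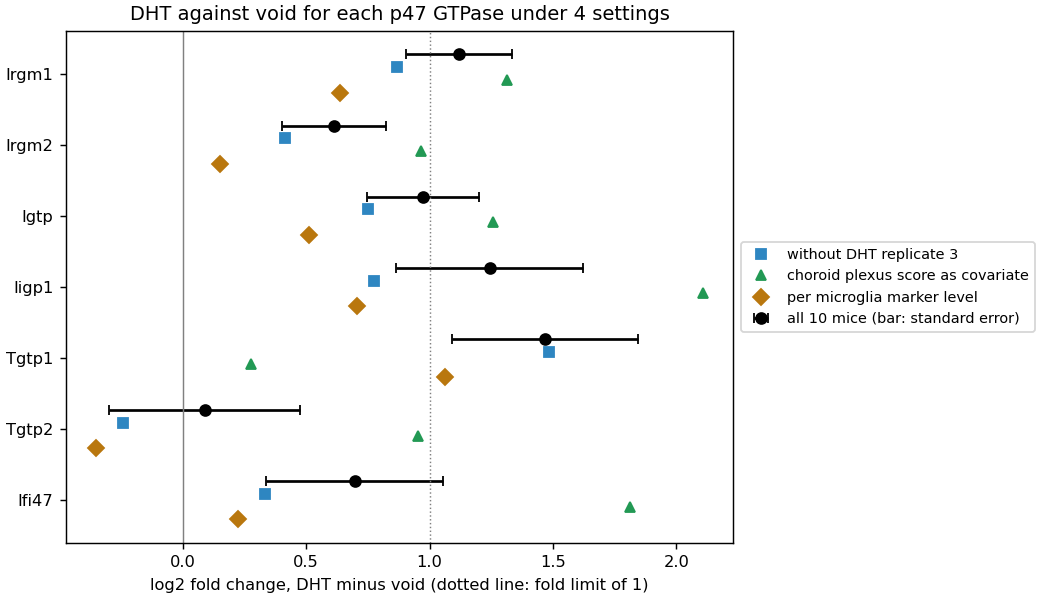
Points give the log2 fold change, DHT minus void, of each member with all 10 mice (black, with standard error), without DHT replicate 3 (blue), with the mouse's choroid plexus score as covariate (green) and per microglia marker level (ochre). The solid line is 0 and the dotted line the fold limit. The green point is below the black for Tgtp1 and above it for the other members.

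Of 10 other p47 GTPase family genes with a row, 7 had enough counts to be tested. Of these, 1 was called higher and 2 had a positive fold with an adjusted p under 0.05, against 2.17% and 5.22% of all genes tested. None was lower, and the median log2 fold change was 0.94. Gm5431, which lies near the Tgtp genes on chromosome 11, rose with the largest fold of the family. It was at 0.169 to 0.389 CPM in the void mice and 0.592 to 1.59 CPM in the DHT mice, with no overlap and with DHT replicates 3 and 1 the highest. Its log2 fold change was 1.80 (SE 0.35, adjusted p = 0.0127 from edgeR). It rests on 8 to 13 counts in each void mouse, and 20.6% of the 100-base windows of Gm5431 also occur in other genes. 9930111J21Rik1 rose by 0.81 on the log2 scale (adjusted p = 0.0237, held in 6 of 10 fits without a mouse), but 69.4% of its 100-base windows also occur in 9930111J21Rik2, which was at 0.48 (adjusted p = 0.273).

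F830016B08Rik and Gm4951, on chromosome 18 with Iigp1, had log2 fold changes of 1.67 and 1.47 and adjusted p values of 0.233 and 0.149 (edgeR). Gm12250 (Irgb10), an effector that targets bacterial membranes, was at 0.287 ± 0.142 CPM with void and 0.526 ± 0.329 CPM with DHT (SD, n = 5 each), which differ by 0.94 on the log2 scale (adjusted p = 0.302). Irgq, a divergent member of the family, was at 129 ± 14.1 CPM and 123 ± 17.0 CPM (SD, n = 5 each), with a fitted log2 fold change of -0.07 (adjusted p = 0.803). Gm12185, Gm4841 and Irgc1 were below the count filter. Gm12185 had 2 to 5 counts in each void mouse and 8 to 31 in each DHT mouse, and 223 of its exon bases overlap Tgtp1 on the same strand.

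Interferon-gamma itself was at the limit of detection. Ifng had 1 count over the 5 void mice and 2 over the 5 DHT mice, and Ifnb1, a type I interferon, had 0 and 1, so no difference was detectable at this depth. T and NK cell markers, from cells that can make interferon-gamma, were scarce, with 14 markers at a summed 0.553 to 1.60 CPM with void and 1.32 to 2.22 CPM with DHT. Of the 14, Cd3d, Cd3g, Nkg7 and Prf1 were higher in every DHT mouse than in every void mouse, at 1, 8, 5 and 0 counts in all with void and 13, 29, 22 and 6 with DHT, and Cd8a had 15 and 62 counts. Such separation held for 5.39% of all genes tested. These markers were below the count filter and not in that set, so no share is given for genes this scarce. Other markers of the list did not separate the groups: Trbc2 had 49 counts with void and 45 with DHT. Cd4, the 1 marker with enough counts to be tested, had a log2 fold change of 0.26 (adjusted p = 0.680, edgeR). The summed levels of the 14 overlapped. Only some of these markers thus moved with the members, at very low counts, and their part was not tested. The receptor genes Ifngr1 and Ifngr2 were at log2 fold changes of 0.24 and -0.01 (adjusted p = 0.167 and 0.968, edgeR). Of 16 interferon ligand, receptor and signalling genes tested, 3 were called higher and 4 had an adjusted p under 0.05 in that direction. The shares over all genes tested were 2.17% and 5.22%, and the median log2 fold change of the 16 was 0.23.

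The transcription factors of the pathway differed in size. Irf1, an activator induced by interferon-gamma, had a log2 fold change of 0.24 (adjusted p = 0.333, edgeR). Irf9, a factor of interferon signalling, rose by 1.06 on the log2 scale (adjusted p = 0.00761), and Irf8, a myeloid factor, by 1.18 (adjusted p = 0.00670). Without DHT replicate 3, Irf9 was at 0.89, below the fold limit, with an adjusted p of 0.0196. Nlrc5, the transactivator of class I MHC genes, rose by 1.39 (adjusted p = 0.0402), with an adjusted p under 0.05 in 3 of the 10 fits that left out a mouse and of 0.0982 without DHT replicate 3. Socs3, an inhibitor of cytokine signalling, rose by 0.94 (adjusted p = 0.0321), short of the fold limit, and its adjusted p held in 2 of the 10 such fits and was 0.0838 without DHT replicate 3.

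The guanylate-binding proteins, larger interferon-inducible GTPases that act with the p47 family at vacuoles, changed in part. Of 9 tested, 3 were called higher and 4 had an adjusted p under 0.05 in that direction, against 2.17% and 5.22% of all genes tested. The median log2 fold change of the 9 was 0.71. Gbp6, Gbp3 and Gbp2 rose by 1.45, 1.26 and 1.24 on the log2 scale (adjusted p = 0.0329, 0.0256 and 0.0272, edgeR), and Gbp7 by 0.71 (adjusted p = 0.0490). With DHT replicate 3 left out, these 4 had adjusted p values of 0.0838, 0.0549, 0.0605 and 0.129, and that of Gbp7 held in 3 of the 10 such fits. Gene copies of this family are alike, and how reads were divided among them is not given in the sources used here. None of the 3 calls held without DHT replicate 1 or 3, or without void replicate 10, 11 or 4.

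The conjugation machinery that directs p47 GTPases and guanylate-binding proteins to vacuoles gave no call. Of 14 tested genes for ATG proteins, LC3 and GABARAP proteins and ubiquitin-pathway partners, 0 were called by edgeR or by DESeq2, 2 had an unadjusted p under 0.05 (Trim21 and Gabarap, both higher), and the median log2 fold change was 0.00. Trim21, an interferon-inducible ubiquitin ligase, rose by 0.78 (adjusted p = 0.0250, edgeR) and was the only gene of the list with an adjusted p under 0.05. Over all genes tested, 5.22% were higher at that limit. Without DHT replicate 3 the adjusted p of Trim21 was 0.0611, and it held in 5 of the 10 such fits.

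The interferon response lists differed in their medians. Over all genes tested, 2.17% were called higher and 5.22% were higher by the adjusted p alone. Of 13 interferon-gamma response genes tested, 6 were called higher, 8 had an adjusted p under 0.05 and the median was 0.95, close to the 0.97 of the members. Cd74, H2-Aa and H2-Ab1, which serve antigen presentation on class II MHC, rose by 2.87, 2.83 and 2.68 on the log2 scale (adjusted p = 0.00761, 0.00670 and 0.00670, edgeR). The chemokine Cxcl9 rose by 2.45 (adjusted p = 0.0469), but its adjusted p was under 0.05 in only 2 of the 10 fits that left out a mouse and was 0.115 without DHT replicate 3. Of 16 type I interferon response genes tested, 12 were called higher, 13 had an adjusted p under 0.05 and the median was 1.93. Ifi27l2a, Mx1, Usp18 and Isg15 rose by 2.56, 2.53, 2.42 and 2.15 on the log2 scale (adjusted p = 0.00670, 0.0164, 0.00670 and 0.0122), and Mx1 lost an adjusted p under 0.05 without void replicate 4 (0.0540) or 11 (0.0579). The lists were not compared by a test. The microglia markers given above moved with these folds, and their part in them was not tested.

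**Figure D5:**
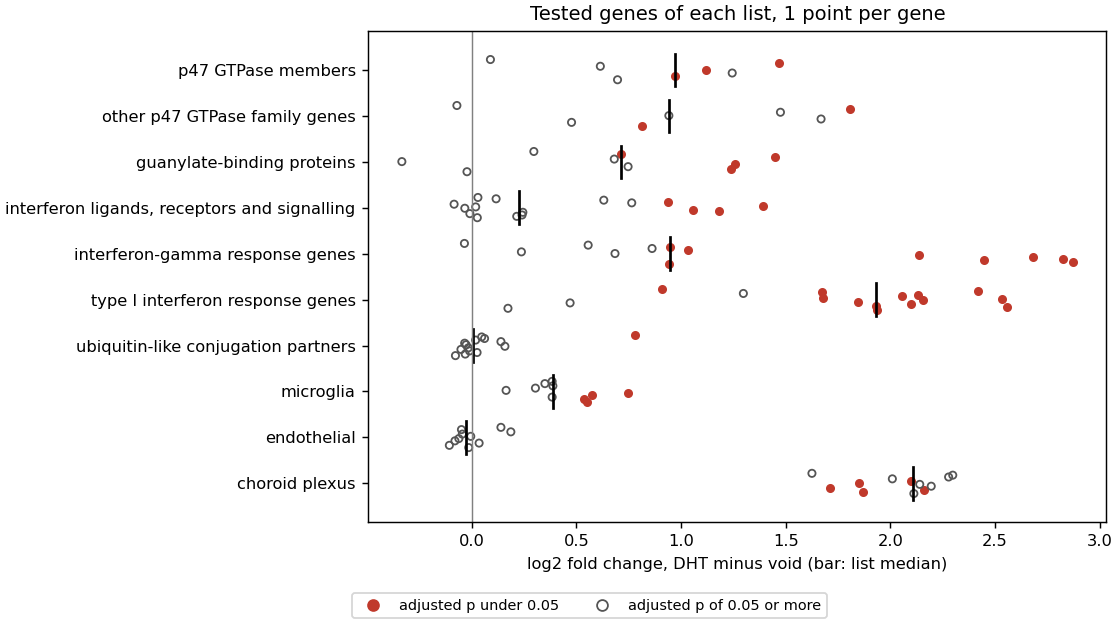
Each point is a tested gene of the list named at the left, placed by its log2 fold change, DHT minus void. Filled red points have an adjusted p under 0.05 (edgeR), open points do not, and black bars are list medians, 0.97 for the p47 GTPase members and 1.93 for the type I interferon response genes.

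The genes most like each member over the 10 mice were found by the smallest root mean square difference of centred log2 CPM profiles among 14827 genes with a mean of at least 1 CPM. For Irgm1 they were Parp14, Ifih1 and Rnf213, at 0.11, 0.11 and 0.13 log2 units, where the median over all genes was 0.65. For Irgm2 they were Sp100, Gbp7 and Aim2, at 0.07, 0.10 and 0.12, with a median of 0.47. For Igtp they were Irgm1, Tgif1 and Lcp1, at 0.15, 0.16 and 0.16. The difference between the groups is part of these profiles. Centred within each group, 1 of the 3 was kept for Irgm1 (Ifih1), 2 for Irgm2 (Sp100 and Gbp7) and 1 for Igtp (Irgm1).

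For Iigp1 the nearest genes were Gbp2, Slfn8 and Trim30a, at 0.20, 0.23 and 0.24, and for Ifi47 they were Slfn5, Gbp9 and Slfn2, at 0.24, 0.28 and 0.28. For Tgtp1 they were A2m, Mlf1 and Serpinb1b, at 0.21, 0.24 and 0.25. For Tgtp2 they were Gnpda1 at 0.34 and 2 genes known by identifiers alone. A2m, a protease inhibitor, was at 17.3 ± 10.2 CPM with void and 42.2 ± 17.0 CPM with DHT (SD, n = 5 each), with overlapping groups and an adjusted p of 0.0802 (edgeR). With profiles centred within each group, A2m was again nearest to Tgtp1, at 0.21, and Sp100 to Irgm2, at 0.07, so these likenesses were also present within the groups.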

How the data were processed

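The authors prepared mRNA libraries from each hippocampus, trimmed and filtered reads with HTStream, aligned them with STAR 2.7.10b and deposited raw counts per gene. The build is mm10 in the study's methods and GRCm39 (mm39) in the submitters' processing notes, so no gene coordinates from the count table are given. Annotation release, strand and handling of reads matching several genes are not given in the sources used here. Of 56884 identifiers, 51948 had a symbol in GENCODE M21.

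Groups came from the sample labels. Per the study's methods, littermates were split at random between treatments and mice were caged with others of their own group, so cage and treatment cannot be told apart. In edgeR 4.0.16 (R 4.3.3), low counts were removed by group with filterByExpr, libraries were scaled by TMM, and the quasi-likelihood test was run without covariates, with p adjusted by Benjamini-Hochberg over 17622 genes. Calls needed a log2 fold change beyond 1 and an adjusted p under 0.05. CPM use TMM-scaled library sizes, and log2 CPM a prior count of 2. The standard error is the size of the log2 fold change over the root of F. Exact permutation tests used log2 CPM. Profiles were compared among genes with a mean of at least 1 CPM. Exon lengths and shared 100-base windows came from GENCODE M21, and promoters from RefSeq. Both count models were first tested on simulated data.

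The alternatives were DESeq2 1.42.0, other normalizations and filters, summing Tgtp1 and Tgtp2, no fold limit, a choroid plexus covariate and leaving out each mouse. Marker-relative levels were added after seeing the data. The members and gene lists were chosen with earlier results of these data known. Genes named are all members, the detected family genes, the 4 with the largest change in each pathway list among those with an adjusted p under 0.05, the main interferon-gamma signalling genes (1 of them is not reported here), the 3 nearest genes of each member, and a few cell markers. Ciita and Gbp2b were added after their values were seen.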

Additional observations from a re-analysis of the deposited data

Results flagged for a closer look

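Of 70 groups of 5 mice examined for a single mouse far from the others, 1 had such a mouse, and chance gives about 3.5. In the void group, Mx1 log2 CPM was highest in replicate 5, with a gap to the next mouse of 0.768 of the group's range, above the limit of 0.71. Void replicate 5 was also the highest void mouse for 5 of the 7 p47 GTPases. None of the 7 members had a mouse beyond that limit in either group, DHT replicate 3 included.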

How the results depend on the processing

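No paired analysis was possible because the labels give no litter or pair. The sole replicate number that occurs in both groups, 5, is not stated to mark a matched pair. Positive directions held for Irgm1, Irgm2, Igtp, Iigp1, Tgtp1 and Ifi47 under every alternative run. With the choroid plexus covariate the adjusted p was no longer under 0.05 for Irgm1 (log2 fold change 1.31), Igtp (1.26) and Tgtp1 (0.28), and edgeR called 0 members, as it did 0 genes in each pathway list, where unadjusted p values under 0.05 numbered 5 for members, 3 for other family genes, 4 for signalling genes, 6 for guanylate-binding proteins, 0 for conjugation partners, 10 for interferon-gamma and 13 for type I response genes. Here and below, counts at an unadjusted p have no share of all genes beside them, so they are not results about the genes counted. Summing both Tgtp genes gave 0.96 for the pair, no longer past the limit. Without a count filter, Iigp1 was at 1.24 with an adjusted p of 0.0469. Per microglia marker level, added after seeing the data, Irgm2 (0.15) and Iigp1 (0.71) lost an exact permutation p under 0.05, and Tgtp2 turned to -0.35. Other family genes called higher, 1 by the main test, became 2 with DESeq2, 2 without a filter, 0 where each library needed at least 10 counts and 2 without the fold limit, where 1 conjugation gene also passed. The 0 was fixed by the filter of 10 counts, which removed Gm5431, with 8 counts in void replicates 4 and 9, before any test.

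With a mouse left out, the log2 fold change ranged from 0.87 to 1.23 for Irgm1, 0.42 to 0.74 for Irgm2, 0.75 to 1.08 for Igtp, 0.78 to 1.497 for Iigp1, 1.19 to 1.91 for Tgtp1, -0.24 to 0.30 for Tgtp2 and 0.33 to 0.91 for Ifi47. Igtp lost its adjusted p under 0.05 without DHT replicates 1 or 3 or void replicates 10, 11 or 4, and Iigp1 gained it without DHT replicate 2. Tgtp1 lost it without any of DHT replicates 1, 2 and 3 and void replicates 10, 11, 4 and 5. Tgtp2 was negative without DHT replicate 3 (-0.24), void replicate 4 (-0.10) or void replicate 9 (-0.05), and Ifngr2, ranging from -0.0619 to 0.0192, was positive without void replicate 9. Members called higher ranged from 0, without DHT replicate 3 (4 at an unadjusted p under 0.05), to 3, and were 1 without DHT replicate 1 or void replicates 10, 11 or 4. Other family genes called higher ranged from 1 to 2, with 2 without DHT replicate 6 or void replicates 10 or 9. Signalling genes ranged from 1, without DHT replicate 3, to 5, without DHT replicate 2. Guanylate-binding proteins ranged from 0 to 3, with 0 without DHT replicates 1 or 3 or void replicates 10, 11 or 4. Interferon-gamma response genes ranged from 4 to 9 and type I genes from 8 to 14. The cause was not tested. Tgtp2 and Ifi47, with group means of 0.909 to 1.45 CPM, rest on few counts in most mice, which limits their precision. The same holds for Tgtp1 in the void mice, at a mean of 1.001 CPM, while its mean in the DHT mice was 2.77 CPM.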

Other observations

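Gbp2b, a guanylate-binding protein of chromosome 3, had 0 counts in void replicate 5 and 0 in DHT replicate 3. It had 78, 81, 60 and 58 counts in void replicates 10, 11, 4 and 9 and 188, 112, 100 and 106 counts in DHT replicates 1, 2, 5 and 6. The mice with 0 counts were the highest of their groups for 5 and 6 of the 7 p47 GTPases. Why these mice had 0 counts was not tested, the strain background of each mouse was not analysed here, and Gbp2b was singled out after its values were seen.

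Ciita, the transactivator of class II MHC genes, was below the count filter, with 18 counts over the 5 void mice and 101 over the 5 DHT mice, and each DHT mouse was above each void mouse in CPM.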
